A study of Homo sapiens with 6 samples.

Results

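Amino acid transporters are membrane proteins that carry amino acids into cells, out of them, and between the cytosol, lysosomes and mitochondria. The 37 genes described here were listed by symbol and grouped by substrate and membrane, and 36 of them were measured among 18417 genes tested. A gene was measured where a probe set of the array carried its symbol alone, and the probe set with the highest mean was used. SLC43A3 had no such probe set. The genes were listed with earlier results of these data known, but their measured values were not part of the rule.

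The cells were WM164, an established melanoma line that carries a mutant BRAF kinase. Parent cells, labelled control and untreated, were exposed to the solvent DMSO per the series title. IDTC colonies, labelled resistant, were kept for 60 days in 500 nM PLX4032, the BRAF inhibitor vemurafenib, with fresh inhibitor medium every 3 days. RNA of 3 samples per group was hybridised to Affymetrix whole-transcript arrays, a single array per sample. The culture medium in both groups was RPMI with 5% fetal calf serum, 2 mM L-glutamine and Penstrep, an antibiotic mix. The model is a single cell line, and the labels do not say whether each colony sample came from its own clone or whether the parent cells were kept for the same time.

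Cells take up glutamine, serine and other small neutral amino acids mainly through sodium-coupled carriers and exchangers, and exchange part of this pool for large neutral amino acids such as leucine through SLC7A5 bound to the heavy chain SLC3A2. Cationic amino acids such as arginine enter through separate carriers of the SLC7 family. Carriers of the lysosome return amino acids from degraded protein to the cytosol, and arginine and leucine there bear on the growth kinase mTORC1. In melanoma, carriers of glutamine and leucine have been studied as supply routes for growth.

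Values are the deposited log2 expression values, so a difference of 1 is a 2-fold change. Array medians lay between 6.25 and 6.34. Arrays correlated across genes at 0.997 to 0.998 within groups and at 0.967 to 0.969 between groups. The melanocyte lineage markers MITF, SOX10, PMEL, TYR and S100B had means of at least 10.07 in both groups, whereas TYRP1 lay below every array median and MLANA was at 10.94 and 9.50. The sum over the 7 measured melanocyte markers was 71.1 to 71.3 in parent cells and 70.6 to 70.9 in colonies. Both group means lay below the lowest array median for 4 of 6 keratinocyte, 2 of 6 fibroblast, 5 of 5 endothelial and 3 of 5 leukocyte markers. The fibroblast list summed to 37.6 to 37.9 in parent cells and 37.1 to 37.4 in colonies, and within it PDGFRA (6.35 and 5.77) and LUM (8.11 and 7.76) fell. The leukocyte list summed to 30.1 to 30.3 in parent cells and 29.0 to 29.1 in colonies. Within it LYZ, a lysozyme gene, fell by 2.35, NCAM1, which neural cells share, rose by 1.07, and the defining marker PTPRC stayed between 3.63 and 3.71 on all 6 arrays. The part of other cells in the results below was not tested, and in bulk RNA fewer cells of a type cannot be told apart from less RNA per cell.

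Amino acid transporters were more often lower than higher in the colonies. Falls were called for 16 of the 36 measured genes and rises for 4, and the other 16 were not called (limma, Benjamini-Hochberg adjusted p under 0.05 over all genes). Among all genes 22.9% were called lower, 20.9% higher and 43.8% either way, against 44.4%, 11.1% and 55.6% of the transporters. Calls were commoner among brightly expressed genes. Of the 24 transporters above the median expression of all genes, 14 fell and 4 rose, which is 58.3% and 16.7%, where the background in this range was 36.8% lower and 31.2% higher. The share called in either direction there, 75.0%, was near the background of 68.0%. The median difference was -0.10 over the 36 transporters and 0.00 over all genes. Only SLC7A2 and SLC7A6, both carriers of cationic amino acids, were lower by at least 2-fold, a size that 2.76% of all genes reached, and 12 of the 20 calls were under 1.5-fold. The ranges of the 3 parent and 3 colony arrays did not overlap for 23 transporters, of which 17 were lower and 6 higher. Such separation was found for 50.8% of all genes, 26.4% lower and 24.4% higher.

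**Figure D1:**
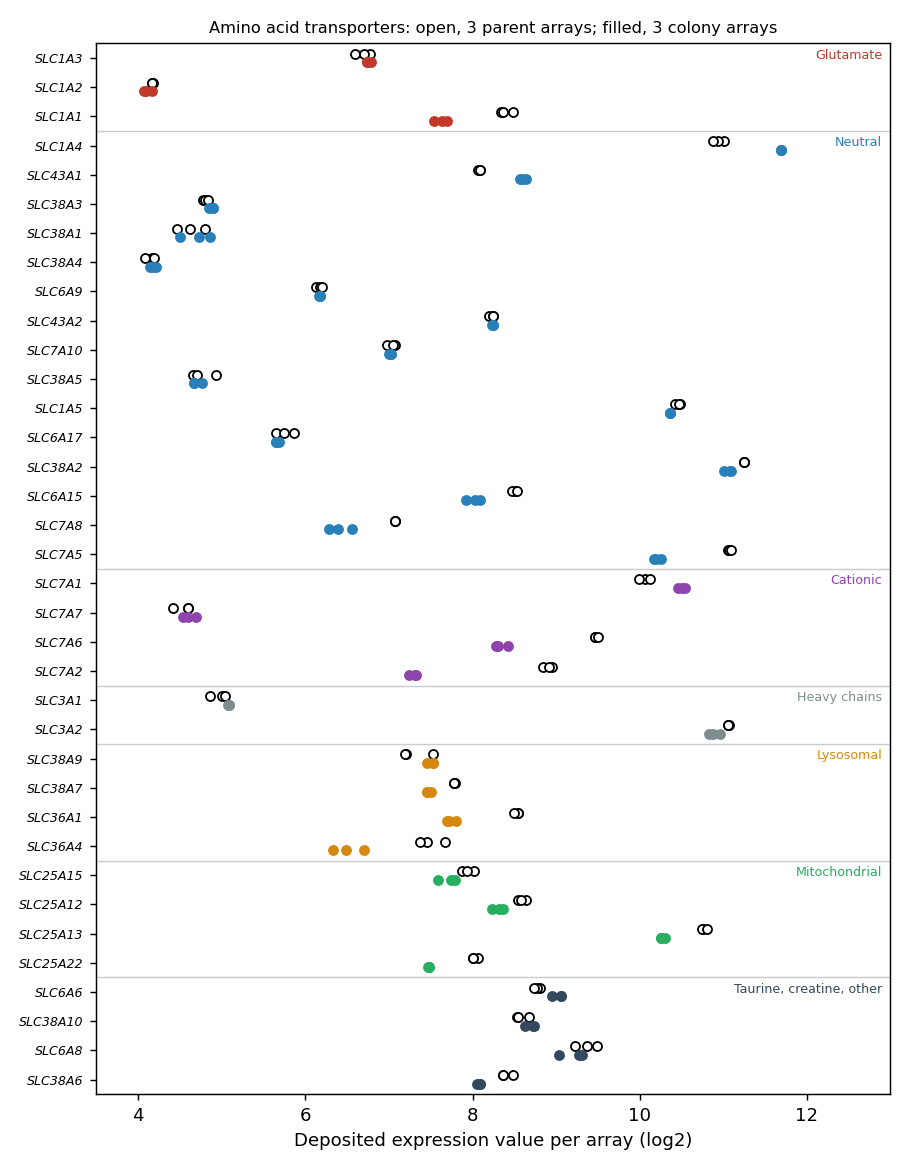
Deposited expression values (log2) of the 36 measured transporters, grouped by role, with open circles for the 3 parent arrays and filled circles for the 3 colony arrays. Levels can be read along a row but not between rows, since each gene has its own probe set. The filled circles of SLC7A2 lie between 7.24 and 7.32, left of its open circles at 8.84 to 8.95, and those of SLC1A4 lie at 11.69, right of 10.88 to 11.01.

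**Figure D2:**
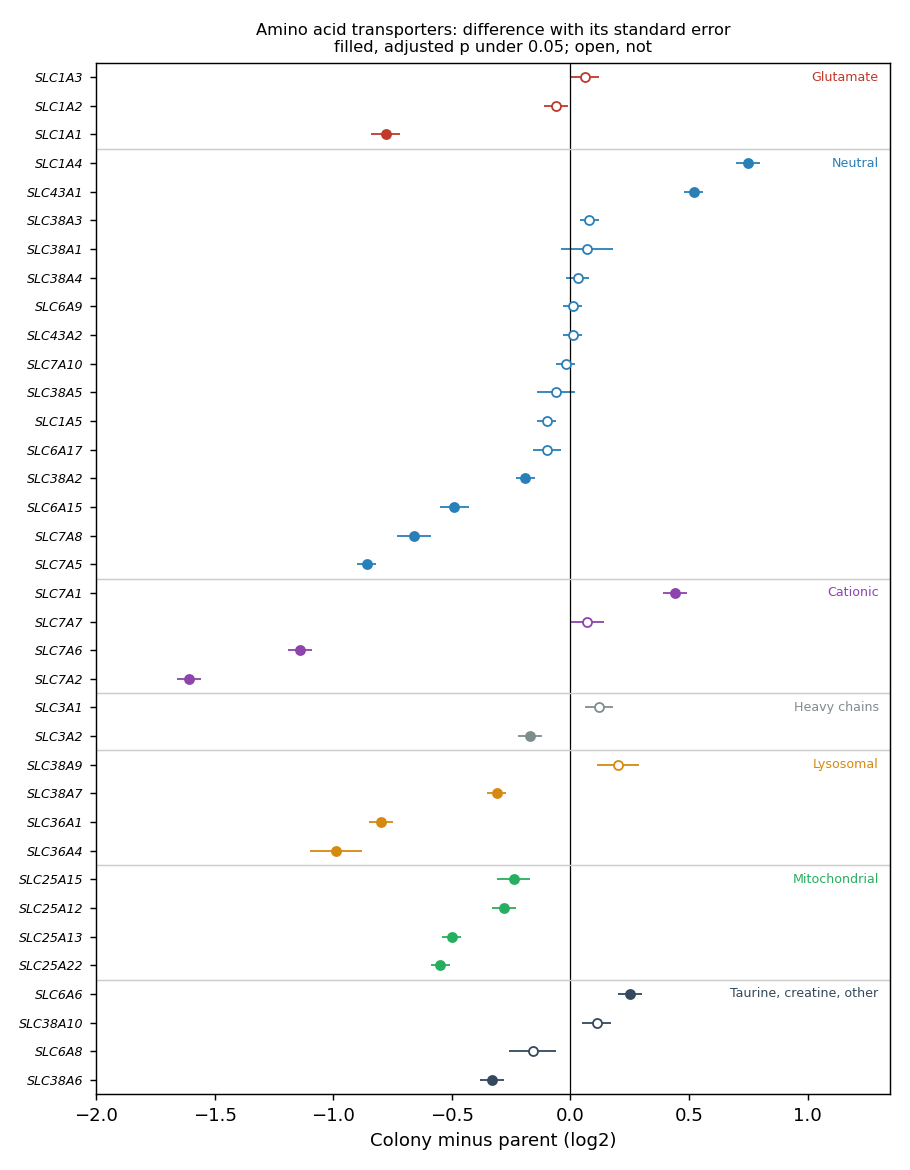
Colony minus parent difference (log2) of each transporter with its standard error, filled where the adjusted p was under 0.05. Differences run from -1.61 for SLC7A2 to 0.75 for SLC1A4, and the 4 mitochondrial carriers all lie left of 0.

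Promoters were searched for TGATGNAA, the core of the C/EBP-ATF response element, through which ATF4 acts on amino acid transport genes. The letters were searched on both strands of RefSeq windows (GRCh38.p14) that run from 250 bases before to 50 bases after each annotated start. The table held 54 windows for 30 of the 37 transporters, and 6 windows of 6 genes held the motif. This is 11.1% of the transporters' windows, where 3.62% of all 35116 windows held it. By gene it is 20.0% of the transporters with a window against 4.46% of all 27305 genes with one. The transporters had more windows per gene than all genes, which gives each more places for a match, so the shares by gene are not like for like. The 6 sites are shown because they let the motif be read beside the measured change. Each is written 5′ to 3′ on the gene's strand with the motif in capitals, which for SLC1A4 and SLC3A2 is its reverse complement.
SLC1A4: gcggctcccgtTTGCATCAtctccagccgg
SLC7A1: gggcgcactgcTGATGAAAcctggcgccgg
SLC1A5: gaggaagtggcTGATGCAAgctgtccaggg
SLC1A3: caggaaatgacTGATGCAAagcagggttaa
SLC38A1: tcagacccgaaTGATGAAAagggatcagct
SLC3A2: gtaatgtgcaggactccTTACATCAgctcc
The sites lie at chr2:64989381-64989410 (plus strand) for SLC1A4, chr13:29595663-29595692 (minus) for SLC7A1, chr19:46784893-46784922 (minus) for SLC1A5, chr5:36596357-36596386 (plus) for SLC1A3, chr12:46266502-46266531 (minus) for SLC38A1 and chr11:62881719-62881748 (plus) for SLC3A2. Of these 6 genes SLC1A4 and SLC7A1 rose, SLC3A2 fell, and SLC1A5, SLC1A3 and SLC38A1 did not pass the test. Among all genes 20.9% were called higher, 22.9% lower and 43.8% either way. The call of SLC3A2 was not kept under every alternative. Whether the motif bears on these changes was not tested. A match shows only that the letters are present in the window.

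The upstream windows of SLC1A4, whose rise was the largest among the transporters, and of SLC7A6, the gene with a window whose fall was deepest, are shown for comparison. SLC1A4 has 2 windows, of which the one with the motif is given, and its capitals again mark the motif, which ends on the first transcribed base. The table had no window for SLC7A2, SLC1A2, SLC3A1, SLC6A6, SLC6A15, SLC38A3 and SLC43A3.
SLC1A4: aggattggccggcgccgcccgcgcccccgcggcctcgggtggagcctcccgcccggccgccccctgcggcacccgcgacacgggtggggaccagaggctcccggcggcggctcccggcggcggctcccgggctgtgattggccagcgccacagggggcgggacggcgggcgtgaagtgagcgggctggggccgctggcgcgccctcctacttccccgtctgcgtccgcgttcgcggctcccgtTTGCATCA
SLC7A6: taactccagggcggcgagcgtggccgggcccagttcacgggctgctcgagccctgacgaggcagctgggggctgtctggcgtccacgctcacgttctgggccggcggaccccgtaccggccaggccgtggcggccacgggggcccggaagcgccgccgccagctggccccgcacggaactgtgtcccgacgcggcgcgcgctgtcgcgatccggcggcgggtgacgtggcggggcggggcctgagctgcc
The first lies at chr2:64989149-64989399 on the plus strand and the second at chr16:68264276-68264525 on the plus strand. Both are rich in G and C, at 79.3% and 77.6%, with 38 and 37 CpG dinucleotides. The other SLC1A4 window, which is not shown, had 48.4% G and C and 12 CpG dinucleotides. The window of SLC7A6 held no match to the motif.

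Of the 3 glutamate and aspartate transporters, SLC1A1 fell and the other two did not pass the test. SLC1A1 (probe set 8154135), a sodium-coupled glutamate transporter that also takes up cysteine, was at 8.49, 8.34 and 8.36 on the parent arrays and 7.54, 7.69 and 7.64 on the colony arrays. All colony values lay below all parent values, a difference of -0.78 ± 0.06 (SE, n = 3 arrays per group, limma adjusted p = 3.4e-05). SLC1A3, the glutamate transporter of many glial cells, was at 6.69 ± 0.09 and 6.76 ± 0.03 (mean ± SD, n = 3), with overlapping groups and a 95% interval of the difference from -0.07 to 0.19. SLC1A2, the main glutamate transporter of astrocytes, had means of 4.17 and 4.11, both under every array's median, and its signal over background was not tested. Within each array, the difference between SLC1A1 and SLC1A3 shifted by -0.84 ± 0.04 from parent cells to colonies without overlap. The exact 2-sided permutation test gave p = 0.1, the smallest p that 3 arrays against 3 allow. This pair, like those compared within arrays below, was chosen after its values were seen, so the p is no independent support.

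Carriers of neutral amino acids went both ways. Among 15 measured genes there were 4 falls and 2 rises, 9 went uncalled, and the median difference was -0.02. The shares were 26.7% lower, 13.3% higher and 40.0% either way, against 22.9%, 20.9% and 43.8% of all genes. SLC1A4 (probe set 8042310), an exchanger of alanine, serine, cysteine and threonine, was at 11.01, 10.94 and 10.88 in parent cells and 11.69 on each of the 3 colony arrays. The groups did not overlap, and it rose by 0.75 ± 0.05 (limma adjusted p = 1.3e-05), or 1.68-fold. Its deposited colony values were identical, so that their SD of 0 was already in the table as deposited.

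SLC1A5, the exchanger through which many tumour cells take up glutamine, was not called. It was at 10.42, 10.48 and 10.47 in parent cells and 10.36 on all colony arrays, lower by -0.10 ± 0.04 without a call (limma adjusted p = 0.11), although the groups did not overlap. The call was reached without parent replicate 1 (-0.11, adjusted p = 0.046), with eBayes set to trend and robust (-0.10, adjusted p = 0.034) and with the neighbourhood median subtracted (-0.17, adjusted p = 0.013). The difference shrank to -0.02 (adjusted p = 0.79) after quantile normalization and to -0.06 (adjusted p = 0.44) with the mean of its probe sets. A second, dimmer SLC1A5 probe set gave -0.02 ± 0.07. The gap between SLC1A4 and SLC1A5 within an array widened by 0.85 ± 0.05 (exact permutation p = 0.1, the smallest possible).

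Among carriers of large neutral amino acids, SLC7A5 and SLC7A8 fell, SLC43A1 rose and SLC43A2 did not pass the test. SLC7A5 (probe set 8003298), the leucine exchanger known as LAT1, was at 11.06, 11.07 and 11.09 in parent cells and 10.19, 10.17 and 10.26 in colonies. Every colony array was lower, by -0.86 ± 0.04 (limma adjusted p = 4.4e-06), or 1.82-fold in the mean. The gene has 2 pseudogenes in the RefSeq table, and reads of their transcripts by its probes cannot be told apart. SLC7A8, a related exchanger, was at 7.07 on all 3 parent arrays and 6.28, 6.39 and 6.56 on the colony arrays. It fell by 0.66 with no overlap (SE 0.07, limma adjusted p = 1.9e-04). SLC43A1, a facilitative carrier of branched-chain amino acids that works without a heavy chain, was at 8.09, 8.06 and 8.09 in parent cells and 8.57, 8.59 and 8.64 in colonies. It rose by 0.52 ± 0.04 (limma adjusted p = 4.5e-05). Its relative SLC43A2 showed a difference of 0.01 with a 95% interval from -0.09 to 0.10. Within arrays, SLC7A5 shifted against SLC43A1 by -1.38 ± 0.02 (exact permutation p = 0.1, the smallest possible).

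Among the sodium-coupled carriers of the SLC38 and SLC6 families, SLC38A2 and SLC6A15 fell. SLC38A2, which takes up small neutral amino acids and is induced when they are scarce, was at 11.25 on all 3 parent arrays and 11.01, 11.09 and 11.08 on the colony arrays. It fell by 0.19 (SE 0.04, limma adjusted p = 0.0086), a call that ended with the neighbourhood median subtracted (-0.10, adjusted p = 0.1). SLC6A15, a carrier of branched-chain amino acids and proline, fell by 0.49, from 8.51 ± 0.03 to 8.01 ± 0.09. Outside these families, SLC7A10, a light-chain carrier of small neutral amino acids, was at 7.03 and 7.02. SLC38A1, SLC38A3, SLC38A4, SLC38A5, the glycine transporter SLC6A9 and the neuronal vesicle carrier SLC6A17 had both means below the lowest array median and did not pass the test, with differences from -0.10 to 0.08.

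Both heavy chains were measured. SLC3A2, which brings its partner carriers to the cell surface, was at 11.06, 11.07 and 11.06 in parent cells and 10.96, 10.88 and 10.83 in colonies, lower by -0.17 ± 0.05 (limma adjusted p = 0.022). That call was not held without colony replicate 2 (-0.16, adjusted p = 0.071), colony replicate 3 (-0.14, adjusted p = 0.062), parent replicate 2 (-0.17, adjusted p = 0.056) or parent replicate 3 (-0.17, adjusted p = 0.054), nor after quantile normalization (-0.09, adjusted p = 0.21). SLC3A1, the heavy chain of kidney and gut, had means of 4.97 and 5.09, below the array medians. Of the 6 light chains that pair with SLC3A2, 4 fell and 2 did not pass the test, where 22.9% of all genes, and 36.8% of those above the median expression, were called lower. The 4 are SLC7A5, SLC7A6, SLC7A8 and SLC7A11, the last being the cystine importer, which is outside the 37 genes and changed from 11.16 ± 0.02 to 10.42 ± 0.07. SLC7A7 and SLC7A10 are the other two. SLC7A5 shifted against SLC3A2 within arrays by -0.69 ± 0.06 (exact permutation p = 0.1, the smallest possible).

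The carriers of cationic amino acids held both of the deepest falls. SLC7A2 (probe set 8144786), which takes up arginine, lysine and ornithine, was at 8.95, 8.84 and 8.92 in parent cells and 7.24, 7.31 and 7.32 in colonies. Every colony array was more than 1 log2 unit below every parent array, and it changed by -1.61 ± 0.05 (limma adjusted p = 5.0e-07), being 3.05-fold lower. SLC7A6 (probe set 7996772), which exchanges arginine inside the cell for glutamine and sodium outside, was at 9.47, 9.47 and 9.50 in parent cells and 8.43, 8.28 and 8.31 in colonies. It fell by 1.14 without overlap (SE 0.05, limma adjusted p = 2.5e-06). SLC7A1 (probe set 7970810), the widespread arginine and lysine transporter, went the other way, from 10.06, 9.99 and 10.12 to 10.50, 10.54 and 10.46. It rose by 0.44 ± 0.05 (limma adjusted p = 2.6e-04). Its distance from SLC7A2 within an array grew by 2.05 ± 0.05, the largest of the 6 shifts between genes that were computed, all chosen after their values were seen (exact permutation p = 0.1, the smallest possible, and 0.1 adjusted over the 6). SLC7A7, a relative of SLC7A6, had both means below the lowest array median (4.54 and 4.61).

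Lysosomal and endosomal carriers fell in 3 of 4 genes. Falls were called for 22.9% of all genes and for 36.8% of those above the median expression. SLC36A1 (probe set 8109350), a proton-coupled exporter of small amino acids from lysosomes, was at 8.55, 8.55 and 8.50 in parent cells and 7.80, 7.70 and 7.72 in colonies. It fell by 0.80 with no overlap (SE 0.05, limma adjusted p = 8.8e-06). Its relative SLC36A4 was at 7.67, 7.45 and 7.37 in parent cells and 6.33, 6.70 and 6.49 in colonies, lower by -0.99 ± 0.11 (limma adjusted p = 2.1e-04). Its arrays were among the more scattered, with SDs of 0.15 and 0.18 against a median SD of 0.04 over the transporters. SLC38A7, which exports glutamine from lysosomes, changed from 7.78 ± 0.01 to 7.47 ± 0.03, lower by 1.24-fold.

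SLC38A9, the lysosomal arginine sensor upstream of mTORC1, did not pass the test. It was at 7.53, 7.20 and 7.19 in parent cells and 7.46, 7.53 and 7.53 in colonies, and the groups overlapped through parent replicate 1. Its difference was 0.20 ± 0.09 (limma adjusted p = 0.13), and without parent replicate 1 it was 0.31 with adjusted p = 0.0019. With the neighbourhood median subtracted it was 0.32 with adjusted p = 0.026. SLC36A1 shifted against SLC38A9 within arrays by -1.0 ± 0.12 (exact permutation p = 0.1, the smallest possible).

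Mitochondrial carriers fell in 4 of 4 genes, all by less than 1.5-fold and all without overlap between the groups. All 4 lay above the median expression, where 36.8% of genes were called lower. Among all genes, 22.9% were called lower and 26.4% were lower without overlap. The aspartate-glutamate carriers of the malate-aspartate shuttle were SLC25A13, which changed from 10.77 ± 0.03 to 10.27 ± 0.03, and SLC25A12, from 8.58 ± 0.05 to 8.30 ± 0.07. SLC25A22, which imports glutamate with a proton, was at 8.06, 8.01 and 8.01 in parent cells and 7.48, 7.47 and 7.48 in colonies. It fell by 0.55 (SE 0.04, limma adjusted p = 2.8e-05). SLC25A15, which exchanges ornithine for citrulline in the urea cycle, was at 8.02, 7.87 and 7.94 in parent cells and 7.59, 7.74 and 7.79 in colonies. Its difference of -0.24 ± 0.07 passed (limma adjusted p = 0.022) but not without colony replicate 1 (-0.18, adjusted p = 0.064), parent replicate 1 (-0.20, adjusted p = 0.065) or parent replicate 3 (-0.24, adjusted p = 0.067). The RefSeq table lists 5 pseudogenes of SLC25A15, whose transcripts its probes may share.

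The 4 remaining measured genes held 1 rise and 1 fall, and 2 were not called. Rises were called for 20.9% of all genes, falls for 22.9% and either for 43.8%. These 4 genes all lay above the median expression, where 68.0% of genes were called, so their calls do not stand out from the background. SLC6A6, the taurine transporter, was at 8.81, 8.77 and 8.73 in parent cells and 8.95, 9.06 and 9.06 in colonies. It rose by 0.25 ± 0.05 (limma adjusted p = 0.0044). SLC6A8, the creatine transporter, was at 9.36 ± 0.14 and 9.21 ± 0.15, with a 95% interval of the difference from -0.38 to 0.07. SLC38A6, a less studied relative of the glutamine carriers, changed from 8.41 ± 0.08 to 8.08 ± 0.02, and SLC38A10 was at 8.59 ± 0.08 and 8.70 ± 0.06.

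The role classes differed in their medians, which are given as a description. The median difference was -0.55 over the 4 lysosomal, -0.53 over the 4 cationic, -0.39 over the 4 mitochondrial, -0.06 over the 3 glutamate and -0.02 over the 15 neutral carriers. Both means lay below the lowest array median for SLC1A2, SLC7A7, SLC6A9, SLC6A17, SLC38A1, SLC38A3, SLC38A4 and SLC38A5. These belong to the glutamate, cationic and neutral classes, and no lysosomal or mitochondrial carrier was so dim. Expression level and role therefore cannot be told apart in these medians. The cationic median lies between a rise and falls of unlike size, whereas the mitochondrial differences ran only from -0.55 to -0.24.

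Several of the smaller falls were close in size to the shift of genes beside them. The 50 nearest expressed genes in the gene order had a median difference of -0.27 around SLC25A12 (own difference -0.28), -0.30 around SLC38A7 (-0.31) and -0.34 around SLC38A6 (-0.33). With this median subtracted the 3 differences were -0.01, -0.01 and 0.01 and none was called. The neighbours of SLC25A13 had a median of -0.29, those of SLC6A15 -0.31 and those of SLC36A1 -0.27, each smaller in size than the transporter's own fall. SLC38A10 lay among neighbours with a median of 0.44, and with that subtracted its difference was -0.33 (limma adjusted p = 0.0029). The median was subtracted as a fixed value, so this p leaves out the median's own error. SLC7A2 (-0.08), SLC7A6 (-0.10), SLC7A5 (-0.16) and SLC1A4 (-0.15) had neighbour medians much smaller in size than their own differences, while SLC1A1 (0.30), SLC36A4 (0.18) and SLC25A15 (0.38) fell among neighbours that were higher. What sets the neighbours' shift was not tested.

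**Figure D3:**
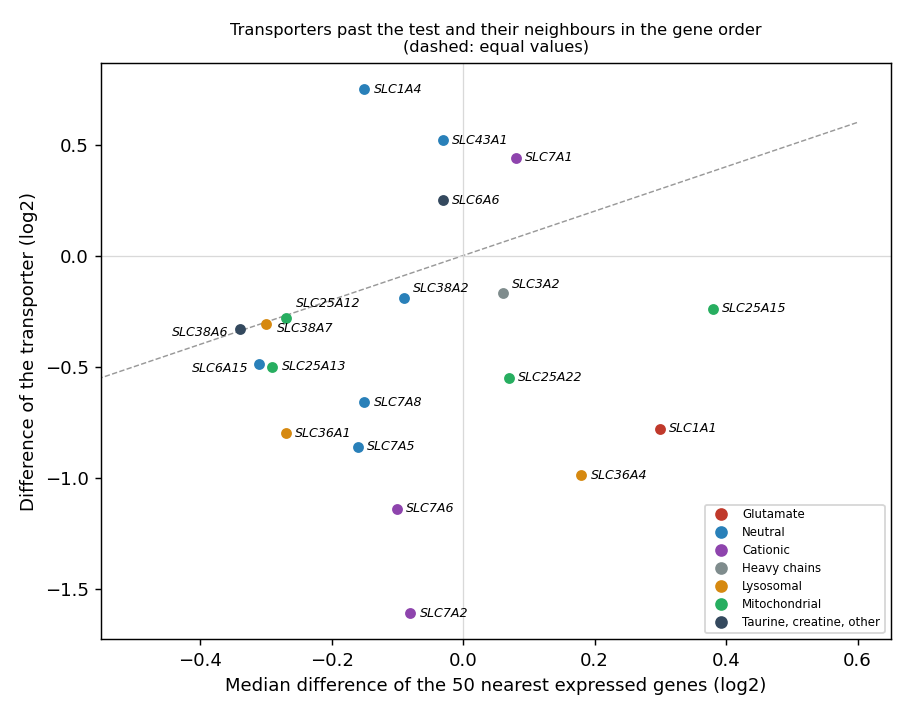
Difference of the 20 transporters that passed the test against the median difference of their 50 nearest expressed genes in the gene order (both colony minus parent, log2), coloured by role. SLC25A12, SLC38A7 and SLC38A6 lie on the dashed line of equal values, whereas SLC7A2 at -1.61 and SLC1A4 at 0.75 lie far from it.

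Other amino acid transporters, listed by family, were mostly dim. Falls were called for 4 of 34 measured and rises for 0 by limma (1 at an unadjusted p under 0.05). The share lower was 11.8%, against 22.9% of all genes. Only 8 lay above the median expression, and the 4 falls were among them, where 36.8% of all such genes were called lower. They were SLC15A4, a lysosomal histidine and peptide carrier (-1.09 ± 0.04), SLC25A38, a mitochondrial glycine carrier (-0.83 ± 0.07), SLC7A11 (-0.74 ± 0.05) and SLC66A1, a lysosomal exporter of cationic amino acids (-0.25 ± 0.04). Adjusted p by limma lay between 9.7e-07 for SLC15A4 and 0.0014 for SLC66A1.

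Enzymes of amino acid synthesis and breakdown were called in both directions. Among 25 measured there were 12 rises (48.0%, against 20.9% of all genes) and 6 falls (24.0%, near the 22.9% of all genes), with 7 uncalled. Above the median expression 77.3% of enzymes and 68.0% of all genes were called. Of the 22 enzymes in this range 11 were called higher, where the background was 31.2%. The 6 falls all lay in this range and made up 27.3% of its enzymes, below the background of 36.8% called lower. The largest rises were those of SHMT1, which moves a carbon unit between serine and folate (1.31 ± 0.05), PRODH, the first enzyme of proline breakdown (1.22 ± 0.12), and CTH, which makes cysteine from cystathionine (1.11 ± 0.04). The parent mean of PRODH, 5.69, lay below the lowest array median and was not tested against background, so its difference and its rank are those of the deposited values, and it has a pseudogene that its probes may share. The deepest falls were those of ODC1, which turns ornithine into putrescine (-1.90 ± 0.07), ARG2, the mitochondrial arginase (-1.19 ± 0.06), and ASL, which releases arginine from argininosuccinate (-0.67 ± 0.10). ODC1 was at 11.57, 11.63 and 11.59 in parent cells and 9.55, 9.68 and 9.84 in colonies, and ARG2 at 8.68, 8.60 and 8.58 and 7.40, 7.34 and 7.54. GLUL, glutamine synthetase, rose by 0.67 on the probe set used and by 0.54 on a second. It has 6 pseudogenes in the RefSeq table, and which copy each probe set reads was not tested. The neighbours given for GLUL below are those of the gene on chromosome 1. ASNS, asparagine synthetase, rose by 0.42 ± 0.05, and the serine synthesis enzymes PHGDH (0.50 ± 0.04) and PSAT1 (0.33 ± 0.05) rose as well while PSPH (-0.02) did not pass. With the neighbourhood median subtracted, the differences were -0.87 for ARG2 (neighbours -0.33) and -0.33 for ASL (neighbours -0.34). They were 0.38 for GLUL (neighbours 0.29) and 0.69 for ASNS (neighbours -0.27), and each stayed called.

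The list of sensing genes also holds signalling and response genes that are not sensors themselves, such as ATF4 and DDIT3. Its shares therefore do not describe sensors alone. Of its 29 measured genes, 16 were called higher (55.2%, against 20.9% of all genes) and 5 lower (17.2%, against 22.9%). Of the 27 above the median expression, 51.9% were called higher and 18.5% lower, where the background was 31.2% and 36.8%. The share called either way there, 70.4%, was near the background of 68.0%. ATF4, the transcription factor of the amino acid response, was at 11.02, 11.20 and 11.08 in parent cells and 11.62, 11.63 and 11.57 in colonies, a rise of 0.50 ± 0.06 (limma adjusted p = 2.5e-04), and a second probe set gave 0.29 ± 0.04. Its partner and target DDIT3 rose by 1.33 ± 0.06, the leucine sensor gene SESN2 by 0.99 ± 0.08 and RRAGB, a GTPase that recruits mTORC1 to lysosomes, by 0.64 ± 0.08. The parent mean of RRAGB, 5.65, lay below the lowest array median and was not tested against background, so its difference is that of the deposited values. SAMTOR, a sensor of S-adenosylmethionine, changed by -0.88 ± 0.05, the lysosomal scaffold gene LAMTOR3 by -0.62 ± 0.05 and the GTPase gene RRAGA by -0.31 ± 0.06. The neighbours of SAMTOR had a median of -0.36 and those of LAMTOR3 of -0.32.

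**Figure D4:**
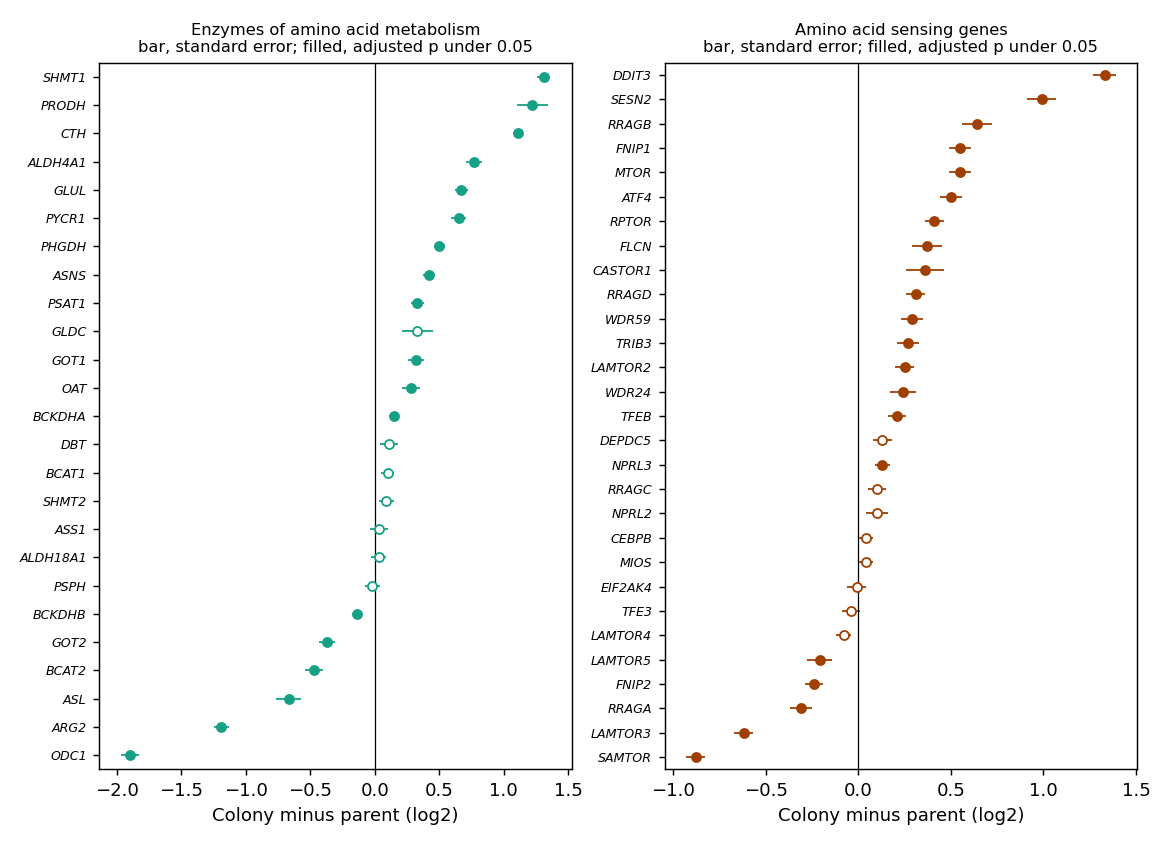
Colony minus parent difference (log2) with its standard error for 25 enzymes of amino acid metabolism (left) and 29 amino acid sensing genes (right). The sensing genes include signalling and response genes. Circles are filled where the adjusted p was under 0.05. Enzymes run from -1.90 for ODC1 to 1.31 for SHMT1, and sensing genes from -0.88 for SAMTOR to 1.33 for DDIT3.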

How the data were processed

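RNA was isolated (Qiagen RNeasy) and amplified and biotin-labelled with Ambion and Affymetrix whole-transcript kits, per the labels' protocols. The authors deposited a log2 value for every probe set, the scale being read from its range. Per the submitters' processing notes Affymetrix Expression Console was used. How it corrected background, summarised probes and normalized arrays, and its version, is not given in the sources used here. Scan dates were not given either, so batch and group cannot be told apart.

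Titles gave the groups. The design text speaks of triplicates isolated separately but not of separate cultures, so a p-value here reflects the spread among these samples alone, and that spread may be technical. Arrays have no read depth, and having 3 per group limits the precision.

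A single gene symbol was paired with 19460 of the 33297 probe sets, several with 1754 and none with 12083. The RefSeq gene table (GRCh38.p14) supplied gene order and current names, with 19429 of the single-symbol probe sets found in it through Entrez IDs. For each of 18417 genes, dim ones included, a 2-sided limma fit (lmFit, eBayes) with no term but group compared colonies with parents, called at a Benjamini-Hochberg adjusted p of 0.05. Within-array shifts between genes used exact permutation tests, on pairs chosen after their values were seen. The fit was tested on simulated data.

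Alternatives changed the scaling (common array median, or quantile), the genes (those above the median expression, or every probe set), the summary (mean over probe sets), the eBayes settings (trend, robust) and the model (a replicate block). Further ones left out single arrays, or subtracted from each gene above the median expression the median of its 50 nearest such genes, 25 to a side. That median came from the same arrays and was taken as a fixed value, so the adjusted p after it leaves out its error.

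All 37 transporters are named whatever their values. From the lists of other transporters, enzymes and sensing genes the naming rule took up to 3 rises and 3 falls, those of largest size past the test, and 5 measured genes whatever their values (SLC7A11, GLUL, ASNS, ATF4 and DDIT3). Further genes of those lists named in the text were picked once their values had been seen. The members and lists were chosen with earlier results of these data known. Of the listed genes, 6 of 31 enzymes, 2 of 31 sensing genes and 1 of 35 further transporters were not analysed here. Same-numbered parent and colony samples did not deviate together (correlations of -0.089, -0.059 and -0.01), so the numbers were not used as pairs. Software was limma 3.58.1 under R 4.3.3, and scipy 1.17.1, pandas 2.3.3, numpy 2.4.6 and matplotlib 3.10.9 under Python 3.11.15.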

Additional observations from a re-analysis of the deposited data

How the results depend on the processing

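Of the 20 transporters that passed the test, 14 kept their direction and their call under each alternative run for them. These were 14 alternatives, but 13 for SLC36A4 and SLC7A8, which lie below the median expression and which subtracting the neighbourhood median leaves as they are. The exceptions were SLC3A2, SLC25A15, SLC38A2, SLC25A12, SLC38A7 and SLC38A6. Between 4 and 5 transporters were called higher and between 14 and 16 lower when each array was left out. With the replicate number as a term, SLC3A2 (adjusted p = 0.055) and SLC25A15 (adjusted p = 0.051) lost the call, and the samples share only a number. With the neighbourhood median subtracted, the sign turned for SLC38A6 (0.01), SLC38A10 (-0.33), SLC43A2 (-0.08) and SLC7A10 (0.00), and 3 rather than 5 sensing genes were called lower. With arrays shifted to a common median, SLC6A9 (-0.02) and SLC43A2 (-0.02) turned sign. With arrays left out, uncalled differences near 0 turned sign for SLC6A9 (-0.01 to 0.02), SLC7A10 (-0.04 to 0.00), SLC38A1 (-0.01 to 0.17), SLC38A4 (0.00 to 0.05), SLC38A5 (-0.11 to 0.02) and SLC43A2 (-0.01 to 0.02). Among further transporters 1 was called higher, against 0, with eBayes trend and robust settings, with the neighbourhood median subtracted, after quantile normalization and with the replicate block. The cause was not tested in these cases. The 9 transporters with both means below the lowest array median could not be shown to be above background.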

Other observations

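Probe sets that carry several gene symbols were outside the comparison, and 3 of them name a transporter. The probe set shared by SLC43A3, a relative of SLC43A1 that carries purine bases, and PRG2 was at 12.37, 12.33 and 12.36 in parent cells and 12.07, 12.02 and 12.05 in colonies, a difference of -0.31. A pair of probe sets shared by SLC6A8 and its pseudogene copies differed by -0.35 and -0.36, with every colony array below every parent array, whereas the probe set of SLC6A8 alone had overlapping groups and a difference of -0.16. Which of the copies gives the signal was not tested.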
